A study of Mus musculus with 6 samples.

Results

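The 10 genes described here encode parts of cyclic AMP (cAMP) signalling and of its route to the transcription factor CREB: the salt-inducible kinases Sik1 and Sik2, the factors Creb1 and Crem, the coactivators Crtc2 and Crtc3, the phosphodiesterases Pde4b and Pde4d, the protein kinase A subunit Prkar2b and the small GTPase Gem. They were picked by gene symbol, as the probe sets that the platform annotation gives exactly 1 symbol equal to one of these names. That gave 31 of the 45037 probe sets tested and 10 of the 18193 genes, with the probe sets of a gene averaged. The study measured RNA of cells that had entered Matrigel plugs, gels of basement membrane proteins placed inside the peritoneum of Balb/c nude mice, which lack a thymus and therefore most T cells. The 3 MFAP5 samples came from plugs with added recombinant MFAP5 (microfibrillar-associated protein 5), a glycoprotein that cells secrete into elastic microfibrils, and the 3 Control samples from plugs without it. Each sample was hybridized to 1 Affymetrix mouse genome array, and the labels call all 6 endothelial cells without saying how these were separated or whether each sample was 1 animal. The p-values therefore measure the spread between these samples, which may be technical.

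When a hormone or prostaglandin binds a receptor coupled to the G protein Gs, adenylyl cyclases make cAMP, which binds the regulatory subunits of protein kinase A and frees its catalytic subunits. The kinase phosphorylates CREB at its target promoters, and it inhibits the salt-inducible kinases, which otherwise keep the CRTC coactivators in the cytoplasm. Phosphodiesterases end the signal by degrading cAMP, and several CREB targets, among them Sik1 and the ICER form of Crem, act as feedback inhibitors. In endothelium cAMP is known for tightening cell junctions, and in adipocytes for driving lipolysis.

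The values were log2 signals relative to each probe set's own median over the 6 arrays, so that differences between arrays could be read and levels could not, nor could 1 gene's level be set against another's. With 6 arrays the middle pair of values of a probe set is equal in size and opposite in sign, which is why a low MFAP5 value and a high Control value often mirror each other. Control replicate 1 was unlike both other Control arrays: over all probe sets, which are not independent of each other, it correlated with them at -0.028 and 0.020, while they correlated with each other at 0.69. The MFAP5 arrays correlated with each other at 0.41, 0.35 and 0.25. The spike-in signal was -0.04, -0.01 and -0.01 on the MFAP5 arrays and -0.32, 0.64 and 0.65 on the Control arrays. All 12 endothelial markers were on the array and none passed the test, but centred values cannot show whether a marker was present.

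Of the 10 genes 1 rose with MFAP5 and 2 fell: Sik1 was 2.58-fold higher, Sik2 was 1.79-fold lower and Prkar2b was 3.65-fold lower (limma, adjusted p under 0.05 over all genes). Over all genes 3.55% passed this test in either direction, 0.759% as higher and 2.79% as lower. The other 7 genes did not pass, and their differences lay between -0.19 and 0.76 on the log2 scale. The median difference of the 10 was 0.02, beside -0.08 over all genes, with 5 differences above 0 and 5 below. The groups of 3 arrays did not overlap in 4 of the 10 genes (Sik1, Sik2, Prkar2b and Pde4b), as in 24.3% of all genes. By probe set 3 of the 31 rose and 4 fell, where 1.56% of all probe sets rose, 1.72% fell and 3.28% passed in either direction, and in 10 of the 31 the groups did not overlap, as in 23.2% of all probe sets.

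**Figure D1:**
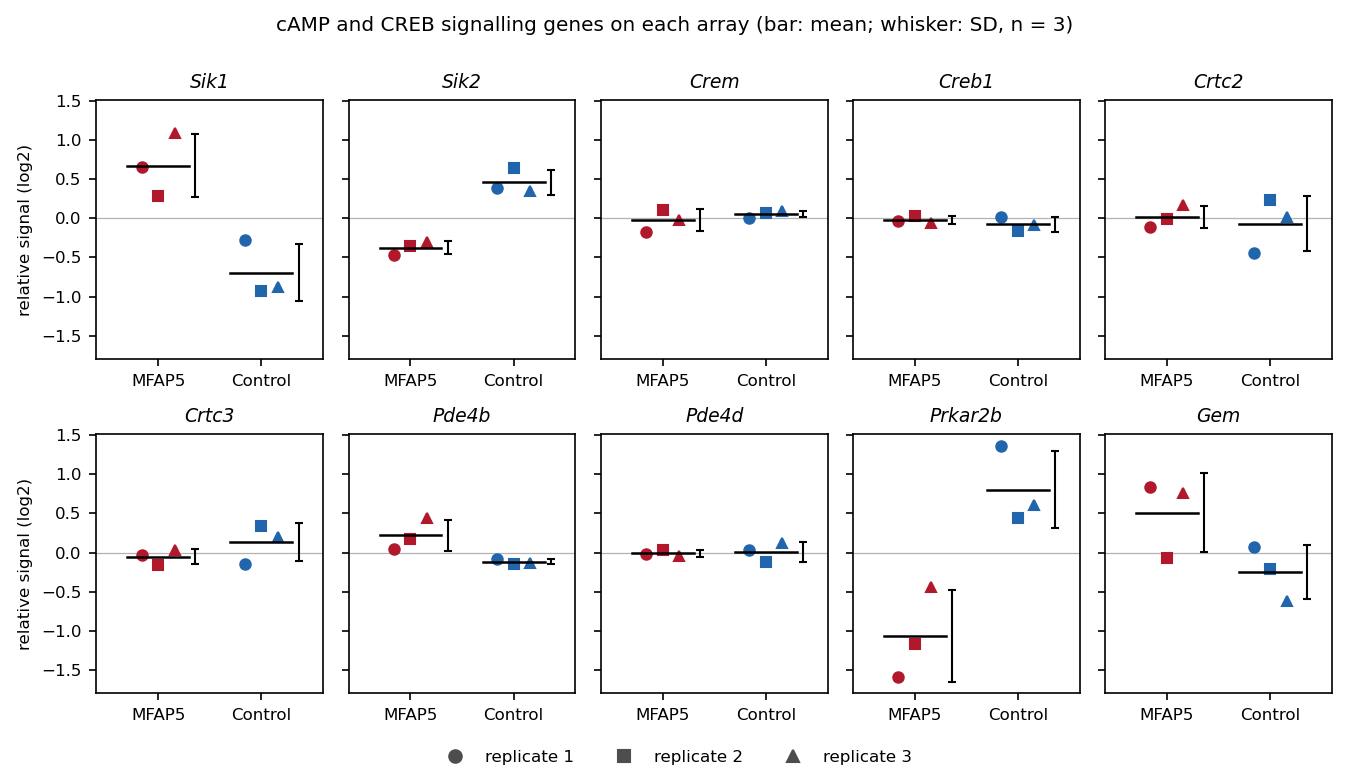
Relative signal (log2) of the 10 genes on each array, MFAP5 left and Control right, with point shape for the replicate number, a bar for the mean and a whisker for the SD of 3 arrays. Sik1 lies higher and Sik2 and Prkar2b lower on all 3 MFAP5 arrays, while Crem, Creb1, Crtc2, Crtc3, Pde4d and Gem overlap between the groups.

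The salt-inducible kinases moved in opposite directions. Sik1, a kinase that CREB itself induces and that phosphorylates the CRTC coactivators, had relative signals of 0.65, 0.28 and 1.09 in MFAP5 replicates 1, 2 and 3, against -0.28, -0.93 and -0.88 in Control replicates 1, 2 and 3. Each MFAP5 value lay above each Control value, with MFAP5 replicate 2 and Control replicate 1 nearest to each other. The difference was 1.37 ± 0.23 on the log2 scale (moderated SE, n = 3 per group, 95% interval 0.84 to 1.90, limma adjusted p = 0.0171). Both probe sets of Sik1 passed over all probe sets, at 1.32 (limma adjusted p = 0.0243) and 1.42 (limma adjusted p = 0.0234). Sik1 lost its call with some single samples left out. Its limma adjusted p was 0.0926 without Control replicate 2, 0.0943 without Control replicate 3 and 0.0570 without MFAP5 replicate 1, at differences of 1.25, 1.28 and 1.38. In these fits 246, 219 and 363 of all genes passed, against 646 with all samples. The limma adjusted p of Sik1 was 0.0608 with the spike-in signal as a covariate, at a difference of 1.15, and without Control replicate 1 it was 0.0104, at 1.58.

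Sik2, the relative of Sik1 that is abundant in adipose tissue and is inhibited by protein kinase A, had values of -0.47, -0.36 and -0.31 in the MFAP5 samples, against 0.39, 0.64 and 0.35 in the Control samples. The 3 MFAP5 values were close together, at -0.38 ± 0.08, and all lay below the Control values, at 0.46 ± 0.16 (SD, n = 3 each). Sik2 fell by 0.84 ± 0.11 (moderated SE, 95% interval -1.10 to -0.58, limma adjusted p = 0.00609), and it passed whichever sample was left out, with a limma adjusted p between 0.00982 and 0.0300. Its 3 probe sets were at -1.08, -0.87 and -0.57, and the last missed the threshold (limma adjusted p = 0.0517). Without Control replicate 3 neither of the other two passed (limma adjusted p = 0.0566 and 0.0583), and without Control replicate 2 the one at -0.87 did not (0.0633). The third mouse member of the kinase family, Sik3, had a difference of -0.06 (limma adjusted p = 0.760).

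Prkar2b encodes the RII beta regulatory subunit of protein kinase A, the main regulatory subunit of adipose tissue. Its values were -1.59, -1.18 and -0.44 in MFAP5 replicates 1, 2 and 3, against 1.36, 0.44 and 0.61 in the Control samples. The groups did not overlap but both were wide: MFAP5 replicate 1 was the lowest, MFAP5 replicate 3 came nearest to the Control samples, and Control replicate 1 was well above the other two. Prkar2b fell by 1.87 ± 0.32 (moderated SE, n = 3 per group, 95% interval -2.59 to -1.15, limma adjusted p = 0.0165). Without Control replicate 3 it missed the threshold (-1.96, limma adjusted p = 0.0656), and without Control replicate 1 it passed at -1.59 (0.0228). Of its 3 probe sets 1430640_a_at was at -2.31 (limma adjusted p = 0.00265) and passed whichever sample was left out. The probe set 1438664_at, at -1.67 (0.0408), missed the threshold when Control replicate 2 or 3 or MFAP5 replicate 1 or 2 was left out, with limma adjusted p between 0.0965 and 0.116, and 1456475_s_at, at -1.63, did not pass (0.0976).

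Markers of adipocytes were lower in the MFAP5 samples. Of the 10 adipocyte markers measured 9 fell, where 2.79% of all genes did. The tenth, Adipoq, which encodes adiponectin, was at -5.00 (limma adjusted p = 0.0598). The median of the 10 markers was -2.26, -2.0 and -1.04 on the MFAP5 arrays, against 1.21, 1.38 and 1.26 on the Control arrays. Among the MFAP5 arrays Sik2, Prkar2b and this median were each lowest in replicate 1 and highest in replicate 3, whereas Sik1 was lowest in replicate 2. The MFAP5 values of Sik2 were close together, and its probe sets did not share the order. The probe set 1457276_at was lowest in replicate 2 (-0.48), and 1419871_at was highest there (-0.18). Among the Control arrays Prkar2b was highest in replicate 1, where the marker median was lowest. In such bulk samples fewer cells of a type and less RNA per cell cannot be told apart, and since the values are centred it cannot be read which markers were near 0. The part of adipocyte RNA in the differences of Sik1, Sik2 and Prkar2b was not tested.

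**Figure D2:**
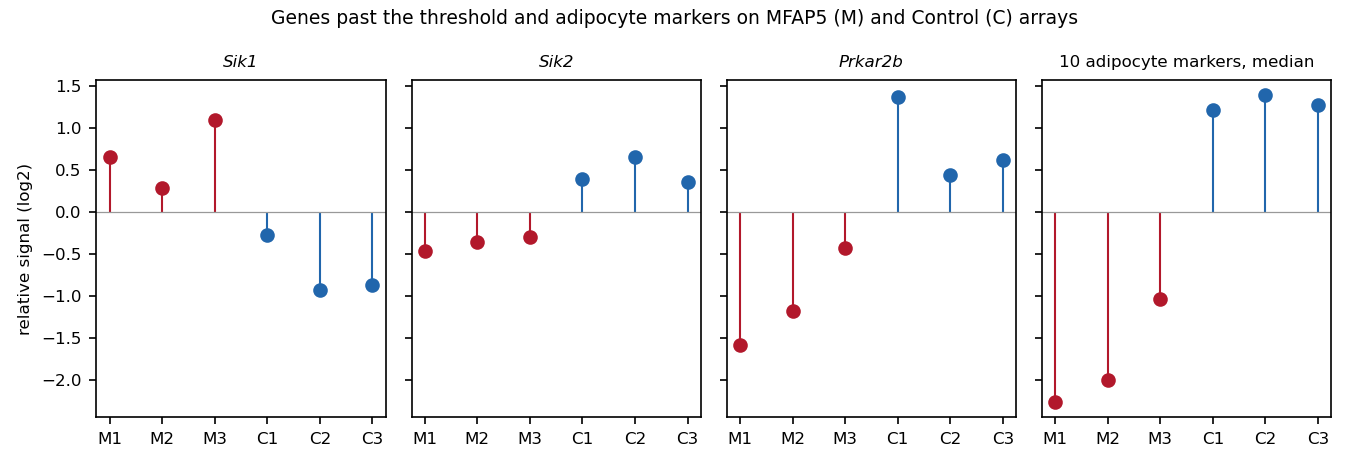
Relative signal (log2) of Sik1, Sik2, Prkar2b and the median of the 10 measured adipocyte markers on MFAP5 replicates 1 to 3 (M1 to M3) and Control replicates 1 to 3 (C1 to C3). Sik2, Prkar2b and the marker median are below 0 on every MFAP5 array and above 0 on every Control array, and Sik1 is the reverse.

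The other marker lists had smaller median differences. Of 6 neutrophil markers 4 fell (median difference -1.04), where 2.79% of all genes did. Of 6 muscle markers 1 fell, Myl1, and of 7 fibroblast markers 1 did, Pi16, with list medians of -0.36 and 0.27. None of the 12 endothelial (median -0.18), 7 macrophage (-0.08) or 5 mesothelial (-0.14) markers passed in limma, where 3584 of all genes had an unadjusted p under 0.05. Of the endothelial markers 9 had a difference below 0 and 3 above, where 34.4% of all genes were above. The lowest were Tek at -0.75 (limma adjusted p = 0.0592) and Pecam1 at -0.71 (0.132). The difference between the 3' and 5' probe sets of beta-actin, a measure of RNA integrity and labelling, was 0.14, 0.08 and 0.04 on the MFAP5 arrays, against -0.0048, -0.05 and -0.03 on the Control arrays, without overlap. Its part in the results was not tested.

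The phosphodiesterases showed a disagreement between probe sets. Pde4b, which encodes a cAMP-degrading enzyme that cAMP itself induces, had gene values of 0.05, 0.17 and 0.44 in the MFAP5 samples, against -0.08, -0.14 and -0.14 in the Control samples. These groups did not overlap, and the difference of 0.34 ± 0.12 did not pass (moderated SE, 95% interval 0.07 to 0.62, limma adjusted p = 0.171). A single probe set, 1442700_at, carried most of it: it stood at 0.89, 0.58 and 2.02 in MFAP5 replicates 1, 2 and 3, against -0.58, -1.05 and -0.84 in the Control samples. Its difference was 1.99 ± 0.33 (moderated SE of 3 samples per group, limma adjusted p = 0.0177). It missed the threshold without Control replicate 2 (0.0960) or 3 (0.0954) and with the spike-in covariate (0.0760). The other 5 probe sets of Pde4b lay between -0.25 and 0.25, overlapped between the groups and did not pass. Taken by its probe set of largest SD, which is 1442700_at, Pde4b as a gene passed (limma adjusted p = 0.0134). Pde4d, a related phosphodiesterase, had gene values of -0.02, 0.04 and -0.05 with MFAP5, against 0.03, -0.12 and 0.12 in the Control samples. Its difference of -0.02 had a 95% interval of -0.25 to 0.22, and neither of its 2 probe sets passed.

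**Figure D3:**
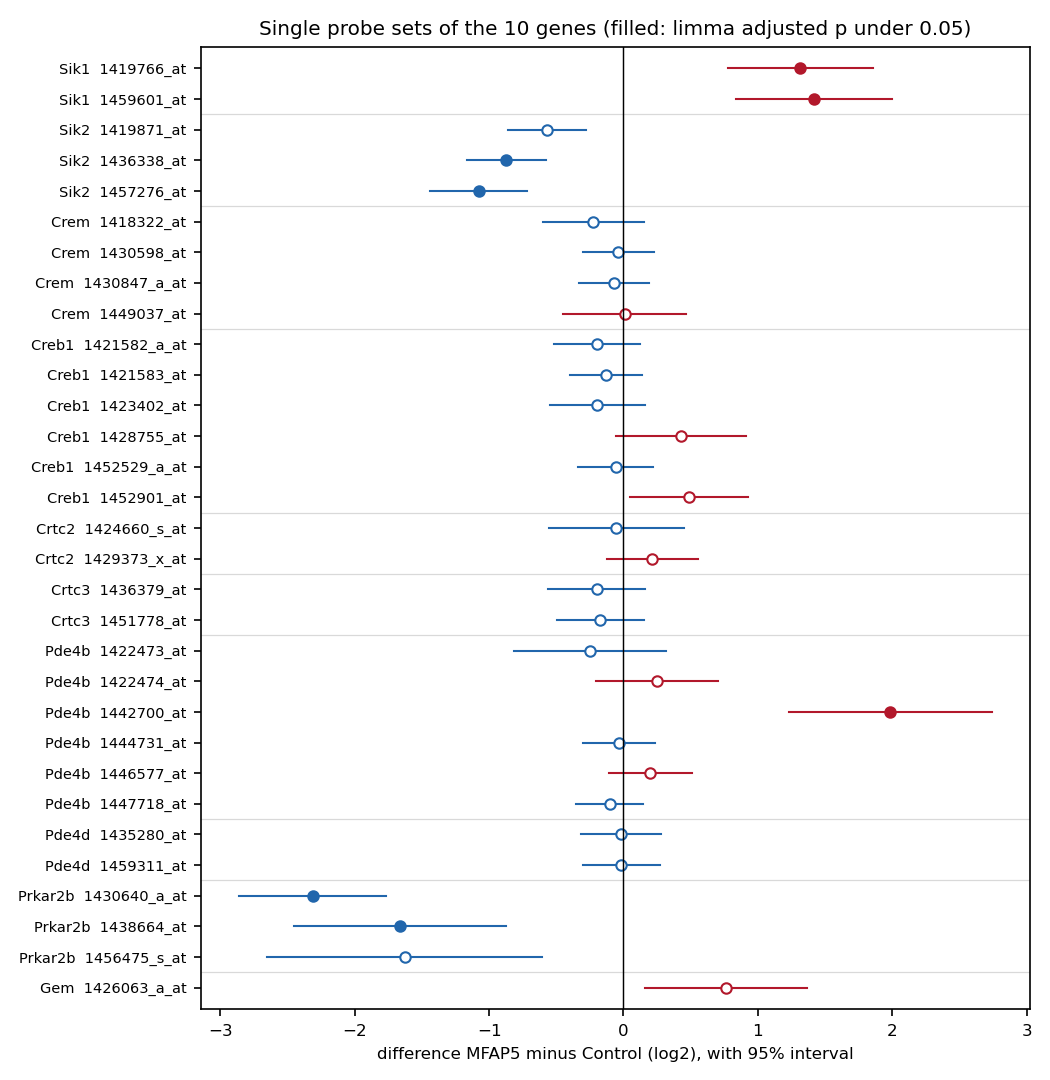
Difference MFAP5 minus Control (log2) of each of the 31 probe sets, with 95% intervals from the limma fit over all probe sets. The 7 filled points passed an adjusted p of 0.05: both of Sik1, 2 of 3 of Sik2, 1 of 6 of Pde4b and 2 of 3 of Prkar2b.

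The genes of the factors that cAMP acts on did not pass. The arrays measured RNA, so the phosphorylation of CREB and the location of the CRTC proteins were not read. Creb1, the CREB protein itself, had values of -0.04, 0.03 and -0.06 in the MFAP5 samples, against 0.02, -0.16 and -0.09 in the Control samples, a difference of 0.06 with a 95% interval of -0.17 to 0.28. Its 6 probe sets split: 4 had differences between -0.20 and -0.06, while 1428755_at and 1452901_at were at 0.43 and 0.49. In 1452901_at the MFAP5 values were -0.0023, 0.28 and 0.03, against 0.0023, -0.75 and -0.40 in the Control samples, so that Control replicate 1 lay among the MFAP5 values and the other two Controls below them. Neither of this pair passed with all samples (limma adjusted p = 0.318 and 0.228), and both did without Control replicate 1 (0.0213 and 0.0327, at differences of 0.68 and 0.68). Without that array 2674 of all genes passed, against 646 with all samples. Crem, the CREB relative whose inducible form ICER represses cAMP targets, had values of -0.17, 0.11 and -0.03 with MFAP5, against 0.01, 0.06 and 0.09 in the Control samples. Its difference was -0.08 (95% interval -0.32 to 0.16), none of its 4 probe sets passed in limma, with a lowest unadjusted p of 0.205, and the sources used here do not say which of them reads ICER.

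The CRTC coactivators, which the salt-inducible kinases phosphorylate, did not pass either. Crtc2 had values of -0.11, -0.01 and 0.16 in the MFAP5 samples, against -0.45, 0.23 and 0.01 in the Control samples, and Control replicate 1 was the lowest array. Its difference was 0.08 (95% interval -0.32 to 0.48), and it was -0.11 without Control replicate 1. Crtc3 was at -0.03, -0.16 and 0.03 with MFAP5, against -0.14, 0.34 and 0.20 in the Control samples, a difference of -0.19 (95% interval -0.50 to 0.13). In both genes Control replicate 1 was lower than the other two Controls.

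Gem, an RGK-family GTPase that inhibits voltage-gated calcium channels, was read by 1 probe set. It had values of 0.84, -0.07 and 0.76 in MFAP5 replicates 1, 2 and 3, against 0.07, -0.21 and -0.62 in the Control samples. MFAP5 replicate 2 lay within the Control range, and the other two MFAP5 samples above it. The difference of 0.76 ± 0.26 did not pass (moderated SE, 95% interval 0.18 to 1.35, limma adjusted p = 0.157), and without MFAP5 replicate 2 it did (1.05, limma adjusted p = 0.0318). Its relatives Rrad, at 0.37, and Rem2, at -0.13, did not pass. In Rrad, as in Gem, MFAP5 replicate 2 (-0.46) was below MFAP5 replicates 1 (0.36) and 3 (0.78).

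Promoter windows were searched for the element that CREB binds, the cAMP response element TGACGTCA, and for its core TGACG. In RefSeq (GRCm38.p6) 10 windows from 250 bases before to 50 bases after a start were found for 6 of the 10 genes, namely Sik2, Creb1, Crtc3, Pde4b, Pde4d and Prkar2b. Windows of Sik1, Crem, Crtc2 and Gem were not analysed here. On both strands none of these 10 windows held the full element, which is in 1.79% of all 32851 windows and contains the core on each strand, overlapping. The core was in 2 of the 10, 1 of Sik2 and 1 of the 4 of Pde4b, and in 20.8% of all windows, a share that does not set the 10 apart. The sequences below are those of both windows with a core and, for comparison, the first of both windows of Prkar2b, which fell most. Capitals mark cores, and all run 5' to 3' along the gene's strand.
Sik2, chr9:51009024-51009323, minus strand: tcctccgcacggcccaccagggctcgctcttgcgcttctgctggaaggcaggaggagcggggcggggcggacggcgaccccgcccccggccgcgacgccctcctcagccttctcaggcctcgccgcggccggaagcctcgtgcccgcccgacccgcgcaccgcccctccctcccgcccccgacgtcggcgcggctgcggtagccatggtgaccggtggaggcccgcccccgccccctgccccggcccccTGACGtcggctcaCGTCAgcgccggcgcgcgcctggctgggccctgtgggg
Pde4b, first start, chr4:102421305-102421604, plus strand: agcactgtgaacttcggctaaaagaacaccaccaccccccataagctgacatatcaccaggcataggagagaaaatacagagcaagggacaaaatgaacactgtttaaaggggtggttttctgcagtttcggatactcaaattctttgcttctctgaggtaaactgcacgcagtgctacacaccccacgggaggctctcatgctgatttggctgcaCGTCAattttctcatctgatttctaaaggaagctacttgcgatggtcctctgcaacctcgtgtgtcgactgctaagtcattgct
Prkar2b, first start, chr12:32061228-32061527, minus strand: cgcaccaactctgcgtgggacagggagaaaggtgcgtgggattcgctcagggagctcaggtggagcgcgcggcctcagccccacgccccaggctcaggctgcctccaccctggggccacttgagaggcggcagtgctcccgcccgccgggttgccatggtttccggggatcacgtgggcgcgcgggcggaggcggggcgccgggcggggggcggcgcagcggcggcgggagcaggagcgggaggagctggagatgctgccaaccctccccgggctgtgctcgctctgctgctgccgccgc
In Sik2, which fell, 2 cores face each other near the start, and Prkar2b has none in either window. The 4 starts of Pde4b are spread over its gene, and the sources used here do not say which of them the probe set 1442700_at reads. A match of these letters is not a binding site, and its absence from a window says nothing of the rest of the gene.

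Other genes of the pathway were taken from 9 lists by role, with 70 of their 80 genes measured. Of these 6 rose and 2 fell, where 3.55% of all genes passed, and the median difference was 0.0039. All but 1 of the 8 were on the list of CREB targets. The exception was Ptger4, the prostaglandin E2 receptor EP4, which couples to Gs: it had values of 0.28, 0.11 and 0.48 in the MFAP5 samples, against -0.11, -0.41 and -0.51 in the Control samples. Its difference of 0.63 ± 0.14 was at the threshold (moderated SE, limma adjusted p = 0.0493), and it missed it with any sample but Control replicate 1 left out (0.0563 to 0.208), with the spike-in covariate (0.121) and with the array medians set equal (0.0506). Of the other 4 genes of its list none passed in limma, with the lowest unadjusted p, 0.0520, for Gnas, the Gs alpha subunit, at 0.23. By its probe set of largest SD Gnas was at 0.91 and did not pass either (limma adjusted p = 0.0668).

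On the remaining lists, other than the CREB targets, most differences of the gene values were small. Among 10 adenylyl cyclases none passed in limma, 9 had a difference below 0 and the list median was -0.16. Adcy2 was at -0.65 (limma adjusted p = 0.0629) and Adcy5 at -0.32 (0.118). Among 8 other protein kinase A subunits and inhibitors none passed and the differences lay between -0.13 and 0.18, with the inhibitors Pkib at 0.18 and Pkig at 0.13. The other regulatory subunits were at 0.08 (Prkar1a), 0.16 (Prkar1b) and -0.02 (Prkar2a), beside -1.87 for Prkar2b. Among 13 other cAMP phosphodiesterases none passed, and the lowest were Pde3b, the insulin-activated phosphodiesterase of adipocytes, at -0.61 (limma adjusted p = 0.0504), and Pde1a, a calcium-stimulated one, at -0.59 (0.0735). Pde3b was at -0.38, -0.29 and -0.15 in the MFAP5 samples, against 0.60, 0.28 and 0.15 in the Control samples, so that both groups kept apart and Control replicate 1 was again the highest. Pde3b passed in limma with the spike-in covariate (0.0261), with a variance trend (0.0356), with array weights (0.0174) and without Control replicate 1 (0.0331). Pde1a passed in limma with array weights (0.0140), with a replicate block (0.0308), with its probe set of largest SD (0.0377) and without Control replicate 1 (0.0243). Among 10 A-kinase anchoring proteins none passed, with Akap1, the anchor at mitochondria, at -0.44 (0.0822) and Akap9 at 0.27 (0.219). The Epac exchange factor Rapgef3 was at -0.20. Of 5 other CREB factors and cofactors none passed, with Creb5 at 0.52 (limma adjusted p = 0.113) and the acetyltransferase gene Crebbp at 0.33 (0.192). Gene values average probe sets that can differ. By the probe set of largest SD Akap1 was at -0.69, Akap9 at 0.79, Creb5 at 0.998 and Crebbp at 0.66. None of these passed (limma adjusted p = 0.0874, 0.0885, 0.0738 and 0.172). Without Control replicate 1, Adcy2, Akap1, Akap9 and Crebbp also passed in limma (0.0272, 0.0369, 0.0462 and 0.0418). Calls rose over the whole table in these settings: 2674 of all genes passed without Control replicate 1 and 4004 with array weights, against 646 in the main fit. Adcy2 passed with a variance trend (0.0489), and Adcy5, at -1.05, with its probe set of largest SD (0.0138). The choice by SD favours probe sets that differ between the groups, for Adcy5 as for Pde1a. The variance trend was fitted on centred values, which hold no signal level.

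Of the 16 measured CREB targets 5 rose and 2 fell, where 0.759% of all genes rose and 2.79% fell. The median difference was 0.61, beside -0.0787 over all genes. The list was chosen with earlier results of these data known, so these counts are a description. The orphan receptor gene Nr4a1 rose by 1.80 ± 0.33, with values of 1.47, 0.43 and 2.01 in the MFAP5 samples, against -0.43, -0.47 and -0.59 in the Control samples. Ptgs2, the inducible cyclooxygenase that makes the precursor of the EP4 ligand, rose by 1.44 ± 0.23, the phosphatase gene Dusp1 by 0.90 ± 0.13 and the repressor gene Nfil3 by 0.57 ± 0.10 (moderated SE of 3 samples per group, limma adjusted p between 0.00928 and 0.0239 for these 4). The fifth, the zinc-finger factor gene Egr1, rose by 0.66 (0.0309). It lay outside the naming rule and was named after its value was seen. Pck1, the gluconeogenic enzyme that adipocytes use for glyceride synthesis, fell by 2.07 ± 0.28, and Ppargc1a, a coactivator of mitochondrial biogenesis, by 0.91 ± 0.11 (moderated SE, with adjusted p from limma of 0.00566 and 0.00247). Pck1 stood at -1.88, -1.38 and -0.62 in MFAP5 replicates 1, 2 and 3, against 1.01, 0.70 and 0.62 in the Control samples. The MFAP5 order was that of Prkar2b and of the adipocyte median. Among the Control arrays Pck1 was highest in replicate 1, where the adipocyte median was lowest. The part of adipocyte RNA in the fall of Pck1 was not tested. Without Control replicate 2 or 3 none of the 5 higher targets passed in limma, where 2267 and 2173 of all genes had an unadjusted p under 0.05, and both lower targets did. Nr4a1, Nfil3 and Egr1 also missed the threshold without MFAP5 replicate 1, Nfil3 and Egr1 without MFAP5 replicate 3 and Nfil3 without MFAP5 replicate 2 (0.0501 to 0.110), and Nr4a1 did so with a variance trend (0.532). With the spike-in covariate Nr4a1 (0.107), Nfil3 (0.0507) and Egr1 (0.103) missed it in limma, and with the probe set of largest SD Nfil3 (0.0563) and Egr1 (0.0529) did. Many of these targets are also induced by other pathways, and the share of CREB in their change was not tested.

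**Figure D4:**
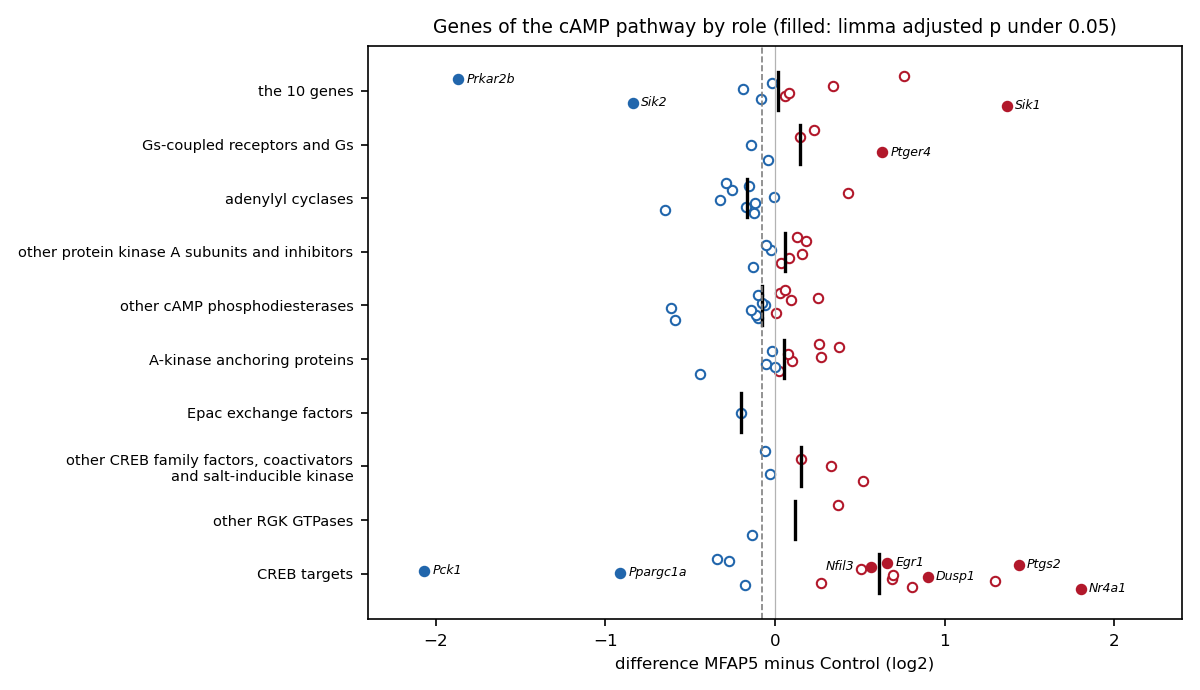
Difference MFAP5 minus Control (log2) of the 10 genes and of the measured genes of 9 pathway lists. Points are genes, filled where the limma adjusted p was under 0.05, thick bars are list medians and the dashed line is the median of all genes. Filled points other than those of the 10 genes are Ptger4 and 7 CREB targets.

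The genes whose 6 array values lay nearest to those of Sik1, by Euclidean distance on the log2 scale over all measured genes, were A930013F10Rik (0.287), Phlda1 (0.329), the nuclear long non-coding RNA Malat1 (0.360), Nfkbiz (0.379) and Nfkbia (0.417). In all 5, MFAP5 replicate 3 was the highest array and MFAP5 replicate 2 the lowest of the MFAP5 group, as in Sik1. Nearest to Prkar2b were Gnai1 (0.573), an inhibitory G protein alpha subunit, Pck1 (0.595), the fatty acid transporter gene Cd36 (0.623), Adhfe1 (0.661) and Steap4 (0.662). Cd36 was at -1.62, -1.14 and -0.22 in the MFAP5 samples, against 0.89, 0.41 and 0.27 in the Control samples. These 10 genes were chosen for their likeness, so their differences are a description.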

How the data were processed

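Per the labels' protocols, biotin-labelled cRNA was hybridized to 1-colour arrays, and the submitters' processing notes name MAS5, whose scaling, like any later step, the sources used here do not give. The values the authors deposited were taken as log2 signals from their range (widest probe set 8.24 units, so base 10 is unlikely), with each probe set's median at 0 to within 5e-07. If the base was e instead, the printed differences and folds are too small. Higher values were taken as more signal. Centring left no level for a filter on dim probe sets or a detection call.

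The 64 control probe sets were left out. Of the rest 34945 had 1 gene symbol, 932 several and 9160 were not listed. Symbols were updated by Entrez identifier (34741 matched), and all 31 probe sets of the 10 genes kept theirs. In R 4.3.3, limma 3.58.1 (lmFit with eBayes, two-sided, Benjamini-Hochberg over all genes or all probe sets) compared MFAP5 minus Control and was tested on simulated data. The genes, lists and tests were chosen with earlier results of these data known. Named were the 10 genes, up to 6 genes of each pathway list (those past the threshold and the 2 with the smallest p), and 5 nearest patterns each for Sik1 and Prkar2b. Genes of lists without a probe set of 1 symbol were not analysed here. Alternatives were quantile normalization, array median centring, a variance trend, array weights, a replicate block, the probe set of largest SD, a spike-in covariate (mean of 14 probe sets for bioB, bioC and bioD), a test against at least 0.5 on the log2 scale, the unmoderated statistic and leaving out each of the 6 samples. The probe set of largest SD was chosen over all 6 arrays, group difference included, which favours probe sets that differ. The variance trend was fitted on each gene's mean of the centred values, so it is not a trend on signal level. The number of arrays limits the precision.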

Additional observations from a re-analysis of the deposited data

How the results depend on the processing

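With quantile normalization, array median centring and a variance trend the 3 calls of Sik1, Sik2 and Prkar2b were kept. Because the values are centred, the variance trend could not follow signal level and does not test dependence on it. Whether the replicate numbers pair the samples cannot be told. Deviations from the group means correlated at 0.18, 0.055 and 0.072 for equal numbers, and between -0.126 and 0.058 for unequal ones. With 3 samples per group such values cannot settle it. With the replicate block the same 3 genes, 9 pathway genes (6 higher, 3 lower) and 743 of all genes passed, against 646 without it. Ptger4 lost its call (limma adjusted p = 0.0577), while Pde1a (0.0308) and a higher gene not named here gained one. Array weights called 5 of the 10 genes (Pde4b and Gem added), 12 of their probe sets, 23 pathway genes and 4004 of all genes. The spike-in covariate called 5 pathway genes (2 higher, 3 lower) and 364 of all genes: Dusp1, Ptgs2, Pck1 and Ppargc1a passed again, Pde3b was added, and Ptger4, Nr4a1, Nfil3 and Egr1 did not pass. Against a minimum log2 difference of 0.5 limma called 0 of the 10 genes, 1 probe set, 1 pathway gene and 137 of all genes, with 438 below 0.05 before adjustment. Without moderation the statistic called 0 of the 10 genes, 0 of their probe sets, 0 pathway genes and 1 of all genes, with 2815 at an unadjusted p under 0.05. Leaving out 1 sample gave 1 to 4 of the 10 genes, 1 to 10 probe sets, 2 to 16 pathway genes and 219 to 2674 of all genes. Without Control replicate 2, Crtc2 was at 0.23 and Pde4d at -0.084. The lowest counts, 1 of them tied with Control replicate 2, came without Control replicate 3 and the highest count of all genes without Control replicate 1, and the cause was not tested. Small differences that did not pass turned their sign. Crem was at 0.0076 with the probe set of largest SD. Crtc2 was at -0.019 with array weights, -0.053 with the probe set of largest SD and -0.11 without Control replicate 1. Pde4d was at 0.014 with quantile normalization, 0.017 with median centring, 0.038 without Control replicate 3 and 0.0020 without MFAP5 replicate 3. No called gene or probe set of the 10 genes turned its sign under these alternatives. Signal over background could not be read from centred values.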
